A study of Monodelphis domestica with 5 samples.

Results

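Peaks of 4 histone modifications were examined around the RNA-binding protein genes HNRNPF and DDX5 in fibroblasts of the opossum, Monodelphis domestica. Members were selected on the peak lists themselves: starting from the H3K9me3 peak that lay inside active chromatin at each gene, every deposited peak of any mark with at most 100000 bases between it and that H3K9me3 peak was taken. This gave 30 peaks near HNRNPF on chromosome 1 and 26 near DDX5 on chromosome 2 (MonDom5), 56 of the 308249 peaks in the 4 lists. Of the 56 peaks, 16 were of H3K4me3, 18 of H3K9Ac, 20 of H3K9me3 and 2 of H3K27me3. Because position and the coincidence of marks chose the members, the values below are a description, and no test was made on them.

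The cells were primary fibroblasts cultured from the ear of 1 adult male (LL1 mother, LL2 father), at passages 4 to 6 according to the labels. The study's methods give a lower passage limit, which the upper end of this range exceeds. Chromatin of these cells was digested with micrococcal nuclease without cross-linking and precipitated with an antibody to H3K4me3, H3K9Ac, H3K9me3 or H3K27me3, giving 1 library for each antibody, and 1 more was made from the input chromatin. All 4 peak lists therefore come from the same animal, no peak has a replicate error, and a difference between HNRNPF and DDX5 is a difference between positions in the same libraries. The labels mention pooling of chromatin for sisters only, without saying how this bears on a male. The fibroblast identity was not checked here against marker genes, since the lists hold positions without gene names.

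H3K4me3 and H3K9Ac are marks of activation (MOAs) that are found at promoters of transcribed genes, where H3K4me3 is laid down around the transcription start and H3K9Ac accompanies open chromatin. H3K9me3 and H3K27me3 are marks of repression (MORs). H3K9me3 is typical of heterochromatin and silenced repeats, and H3K27me3 is deposited by Polycomb complexes. At imprinted genes MOAs can sit on the expressed allele and H3K9me3 on the silent allele of the same promoter, which is why the study searched for promoters where these marks coincide. Among the candidates it sequenced, the study reported strong allele bias in expression for Meis1, Cstb and Rpl17. HNRNPF was chosen for SNP confirmation, but the study gives no expression result for it by name. For DDX5 no SNP is listed in the LL1 by LL2 crosses. Since a SNP in both cross directions was required, its allelic expression was not assayed. The peak lists hold no information on alleles, so whether the marks at these loci sit on different alleles was not tested. HNRNPF encodes a heterogeneous nuclear ribonucleoprotein that binds G-rich tracts of pre-mRNA and takes part in splicing and 3′ end formation. DDX5 encodes a DEAD-box RNA helicase (p68) that unwinds RNA during splicing and microRNA processing and also acts as a transcriptional coregulator. Both proteins are made in most cell types. In the RefSeq annotation of the newer opossum assembly mMonDom1, whose coordinates cannot be joined to these lists, DDX5 lies between CEP95, a centrosomal protein gene, and POLG2, which encodes the accessory subunit of the mitochondrial DNA polymerase. HNRNPF was not matched there. The names of the loci are those of the study's candidate list. CEP95 and POLG2 stand on the same list, which places their 3′ ends within 100000 bases of the H3K9me3 peak at DDX5. Whether a peak lies at a promoter, exon or intron, and of which gene, was not analysed here.

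Each peak carries the score that MACS gave it against the input, which is the negative log10 of its p-value multiplied by 10. A score of 50 is a p of 1e-05 and a score of 30 a p of 0.001. The H3K4me3 and H3K9Ac lists start at a score of 50 and the H3K9me3 and H3K27me3 lists at a score of 30. Scores stop discriminating at a ceiling of 3100, which was reached by 7.35% of H3K4me3 peaks and 2.62% of H3K9Ac peaks. As scores also grow with sequencing depth and peak width, each peak was ranked only within its own list, by the percentage of peaks in that list with a lower score or a smaller width. The lists hold 79412 (H3K4me3), 52511 (H3K9Ac), 159734 (H3K9me3) and 16592 (H3K27me3) peaks. Read depth behind single peaks is unknown, since the lists hold no read counts.

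At HNRNPF a strong and wide H3K9me3 peak sat near the lower end of a very wide H3K4me3 peak. The H3K9me3 peak ran from 343906838 to 343909866, was 3029 bases wide and scored 289.54, a MACS p of 1.1e-29. The H3K4me3 peak over it ran from 343905825 to 343919128, was 13304 bases wide and had a score at the ceiling. It extended 1013 bases past the lower edge of the H3K9me3 peak and 9262 bases past the upper edge. The repressive mark thus lay off centre, with its midpoint 19% of the way along the H3K4me3 peak. This position refers to the peak as called, and another H3K4me3 peak ended 166 bases below it. The H3K9Ac peak at this position ran from 343903869 to 343911462, was 7594 bases wide and had a score of 2173.15. It extended 2969 bases below and 1596 bases above the H3K9me3 peak, which filled 39.9% of its width.

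As called, the H3K9Ac peak at HNRNPF was shifted against the wide H3K4me3 peak. It began 1956 bases below the start of the H3K4me3 peak and ended 7666 bases before its end. Immediately below, a separate H3K4me3 peak from 343903177 to 343905658 (score 1141.67) was divided from the wide one by a gap of 166 bases, and the H3K9Ac peak spanned that gap and shared 1790 bases with it. On the other side, a weak H3K9Ac peak from 343911635 to 343913328 (score 114.88) followed after 172 bases and lay inside the wide H3K4me3 peak. Thus the gaps that split these active regions into separate calls were short. With peaks of 1 mark joined across up to 1000 bases, the H3K4me3 region was 15952 bases wide and the H3K9Ac region 9460 bases. The joined H3K4me3 region (343903177 to 343919128) then held the whole joined H3K9Ac region (343903869 to 343913328). The shift therefore depended on the split of the H3K4me3 call. The last 5800 bases of the H3K4me3 peak, beyond the last H3K9Ac peak, carried no other mark.

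At DDX5 the H3K9me3 peak lay deeper inside active chromatin, measured to the edges of the peaks as called. It ran from 229955768 to 229958483, was 2716 bases wide and scored 194.60, a MACS p of 3.5e-20. The H3K4me3 peak over it, from 229950043 to 229968877, was 18835 bases wide and at the score ceiling, and extended 5725 bases below and 10394 bases above the H3K9me3 peak. The H3K9Ac peak, from 229951227 to 229961134, was 9908 bases wide, also at the ceiling, and extended 4541 bases below and 2651 bases above. The 3 peaks were fully nested, with the whole H3K9Ac peak inside the H3K4me3 peak and the whole H3K9me3 peak inside the H3K9Ac peak. Further H3K9Ac peaks lay inside the upper part of the same H3K4me3 peak, a weak one from 229962759 to 229964205 (score 70.90) and a strong one from 229964407 to 229968261 (score 1179.37). The wide H3K4me3 peak at DDX5 therefore held 2 strongly acetylated stretches, and the H3K9me3 peak lay in the lower one.

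**Figure D1:**
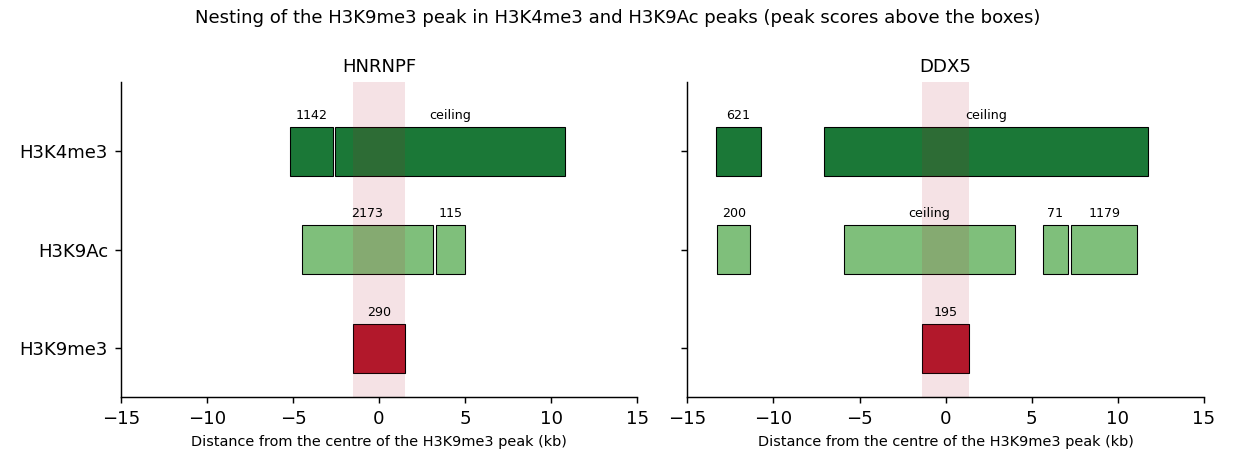
Boxes show the H3K4me3, H3K9Ac and H3K9me3 peaks within 15 kb of the centre of the nested H3K9me3 peak at HNRNPF (left) and DDX5 (right), with the score above each box and the extent of the H3K9me3 peak shaded; the horizontal axis is distance in kb, with higher chromosome coordinates to the right. At HNRNPF the H3K9me3 peak starts 1013 bases inside the H3K4me3 peak and at DDX5 it starts 5725 bases inside. At HNRNPF this refers to the peak as called, which begins 166 bases above another H3K4me3 peak.

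The loci shared an order of widths and differed, on the peaks as called, in how the active marks were placed. In both, the H3K4me3 peak was the widest and the H3K9Ac peak narrower. The H3K9me3 peak was the narrowest by selection, since it was chosen for lying inside the active peaks. Its midpoint fell at a like position along the H3K9Ac peak as called, 59.0% at HNRNPF and 59.5% at DDX5. At HNRNPF another H3K9Ac peak followed this call after 172 bases, so the likeness holds only for the calls as split. The H3K9me3 peak took up 22.8% of the H3K4me3 width at HNRNPF and 14.4% at DDX5. Outside the H3K9me3 peak, the H3K4me3 and H3K9Ac calls over it shared a further 2609 bases at HNRNPF and 7192 bases at DDX5. These counts leave out neighbouring calls. At HNRNPF 1790 bases were shared with the H3K4me3 peak below, and an H3K9Ac peak of 1694 bases lay inside the wide one. At DDX5 H3K9Ac peaks of 1447 and 3855 bases did so. With calls joined across up to 1000 bases, the H3K9Ac regions were alike in width, 9460 bases at HNRNPF and 9908 at DDX5. An H3K9me3 peak wholly inside both MOAs was found for 237 of the 159734 H3K9me3 peaks (0.148%), and an H3K9me3 peak sharing at least 1 base with both for 1555 (0.973%). Near the genes these were 2 of 20 by either definition, which is the selection itself, since the remaining 18 H3K9me3 peaks shared no base with H3K9Ac.

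Within their own lists the nested H3K9me3 peaks ranked high in score and less high in width. The HNRNPF peak ranked 4027 of 159734 by score, above 97.5% of H3K9me3 peaks, and the DDX5 peak ranked 8408, above 94.7%. By width they were above 90.77% and 87.55% of the list. Scores per kb of width were also high, at 95.6 for HNRNPF and 71.6 for DDX5, above 98.04% and 95.05% of the list, whose median was 35.65. On their own chromosomes the ranks by score were 669 of 31488 and 995 of 23151.

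The enclosing active peaks were among the widest of their lists, whereas in score 3 of the 4 were at the ceiling and could not be ranked among the peaks tied there. By width, the H3K4me3 peak at DDX5 ranked 108 of 79412 and that at HNRNPF 346. The H3K9Ac peaks ranked 310 of 52511 at DDX5 and 862 at HNRNPF. The selection favoured wide peaks, since an active peak around the whole H3K9me3 peak is at least as wide as it. The list medians were 1983 bases for H3K4me3 and 2061 bases for H3K9Ac. In score, both H3K4me3 peaks tied with the 5840 peaks at the ceiling, the H3K9Ac peak at DDX5 tied with 1374, and the H3K9Ac peak at HNRNPF ranked 2918 of 52511. In score per kb of width, the H3K4me3 peaks were above only 76.94% (HNRNPF) and 66.14% (DDX5) of their list and the H3K9Ac peaks above 83.05% and 85.68%. For peaks at the ceiling this quotient may be a lower limit, since scores hardly discriminate there.

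**Figure D2:**
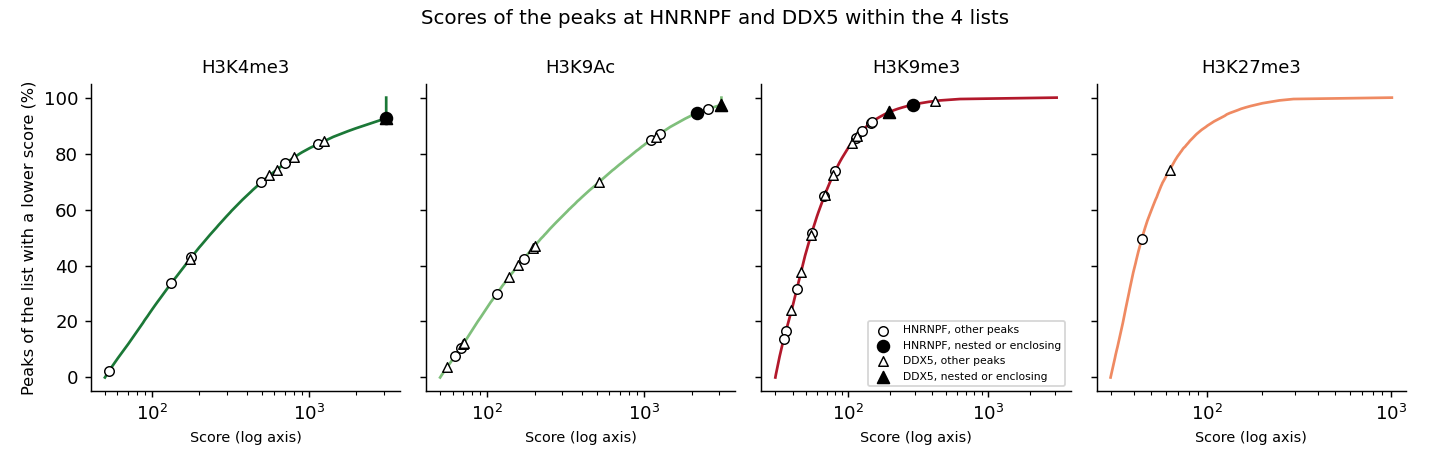
Each panel plots, for 1 mark, the percentage of peaks in the list with a lower score (vertical axis) against score (log axis); the line is the whole list and the symbols are the peaks near HNRNPF (circles) and DDX5 (triangles), filled for the nested H3K9me3 peaks and the active peaks that enclose them. The filled H3K9me3 symbols lie at 97.5% and 94.7%, and a DDX5 peak outside active chromatin, with a score of 419.62, lies above both.

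Around HNRNPF, active and repressive peaks alternated in blocks. The block that holds the nested peak was flanked below, between 51.6 kb and 23.9 kb away, by 7 H3K9me3 peaks from 343854169 to 343882986. Their scores ran from 35.79 to 147.14, and the 5 nearest the nested peak, with scores of 80.16, 144.72, 112.54, 147.14 and 124.66, were all above at least 73.7% of the H3K9me3 list. The nested peak nevertheless had the highest H3K9me3 score in the window. The upper neighbours were weaker, with 3 H3K9me3 peaks from 343975306 to 343983096 that had scores of 34.47, 54.61 and 42.71, the nearest of them 65.4 kb away.

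At its upper end the lower H3K9me3 block at HNRNPF overlapped an active mark. An H3K4me3 peak without H3K9Ac, from 343879210 to 343880771 (score 132.68), was straddled by neighbouring H3K9me3 peaks that covered 556 bases at its lower end and 166 at its upper end, 722 of its 1562 bases. Apart from the nested peak itself, this was the only place in the window where an active and a repressive mark shared bases. The next H3K4me3 peak, from 343885671 to 343889388, was at the score ceiling, carried an H3K9Ac peak of 2961 bases (score 1109.34) inside it, and was free of H3K9me3. The H3K9me3 block ended 2897 bases below that H3K9Ac peak.

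Above the nested peak, a second active cluster began 34.6 kb away. It held H3K4me3 peaks from 343944483 to 343948928 and from 343953504 to 343960312, both at the ceiling, with a weaker one between them (score 177.75). H3K9Ac peaks lay inside all 3, with scores of 2559.47 and 1260.09 in the strong ones, and the former was the strongest H3K9Ac peak of the window, above the one over the nested H3K9me3 peak. Farther out, an H3K4me3 peak from 343985766 to 343991128 (score 707.29) had no acetylation, and its neighbour from 343992296 to 343994525 (score 496.52) had an H3K9Ac peak with a score of 170.61. The H3K4me3 peak farthest below, 83.7 kb away, had a score of 53.13 and no other mark.

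**Figure D3:**
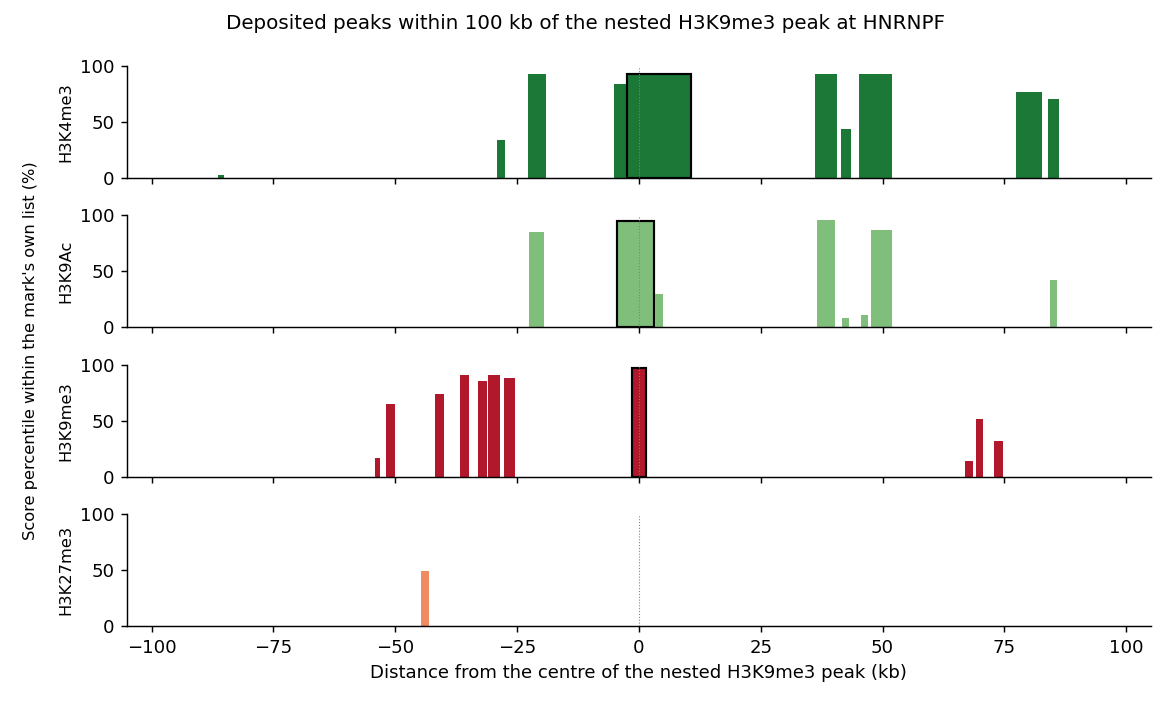
Deposited peaks of the 4 marks within 100 kb of the nested H3K9me3 peak at HNRNPF, drawn to scale along the horizontal axis (distance from its centre in kb); bar height is the percentage of peaks in the mark's own list with a lower score, and outlined bars are the nested H3K9me3 peak and the active peaks over it. Apart from the outlined peak, H3K9me3 bars occur as a block of 7 on the left and a block of 3 on the right.

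Around DDX5 the nested peak was not the strongest H3K9me3 peak. That was a peak from 229905508 to 229910540, 45.2 kb below, 5033 bases wide with a score of 419.62, above 98.8% of the list in score and 97.7% in width, and it shared no base with any other mark. It continued a short block with peaks from 229900270 to 229901991 (score 78.01) and from 229904321 to 229905448 (score 67.89), the latter 59 bases from it. The gap to the nearest acetylation was 4326 bases. Another 2 peaks lay farther below, with scores of 105.97 and 39.14, and 3 above, from 51.6 kb to 77.5 kb away, with scores of 45.83, 54.03 and 115.04. No active mark touched any of these 8 H3K9me3 peaks.

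Active peaks near DDX5 were spread over the lower side of the window. H3K4me3 peaks lay 91.0 kb, 62.8 kb, 36.7 kb and 9.36 kb below the nested peak, with scores of 803.43, 1248.10, 558.66 and 621.00, and each overlapped an H3K9Ac peak. The acetylation in them varied, with a score of 518.15 in the second and only 55.27 in the first, where it covered 1174 of 3964 bases. A pair of H3K9Ac peaks, from 229921925 to 229923979 (score 137.29) and from 229931985 to 229933532 (score 70.22), lay outside H3K4me3. On the upper side, beyond the wide H3K4me3 peak itself, a stretch of 29015 bases held no peak of any mark, and the only active peak after it was an H3K4me3 peak from 229997893 to 229999436 (score 173.29) without acetylation.

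**Figure D4:**
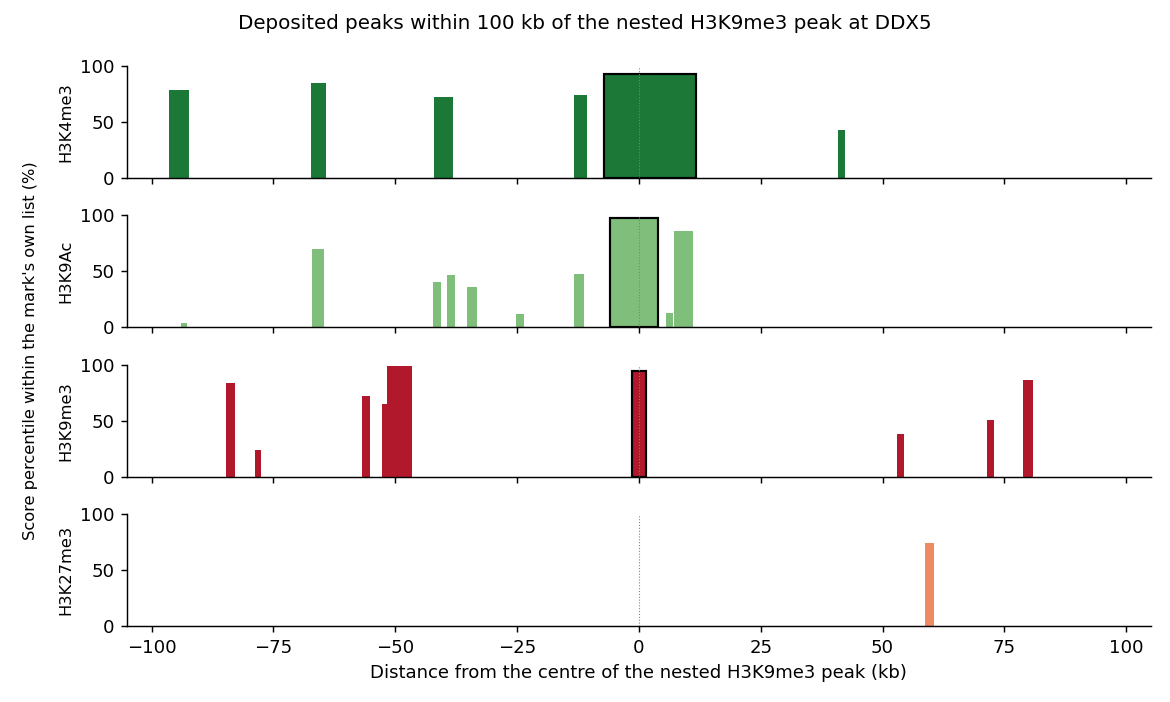
Deposited peaks of the 4 marks within 100 kb of the nested H3K9me3 peak at DDX5, drawn as a map with distance from its centre in kb on the horizontal axis; bar height is the percentage of peaks in the mark's own list with a lower score, and outlined bars are the nested peak and the active peaks over it. The tallest H3K9me3 bar is the peak on the left whose nearer edge lies 45.2 kb from the edge of the nested peak, in a gap between active peaks.

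Taking the peaks that did not touch the nested ones, H3K9Ac coincided with H3K4me3 about as often as over the whole list, and H3K4me3 with H3K9Ac more often. Of 16 such H3K9Ac peaks 14 (87.5%) shared a base with H3K4me3, against 90.0% of all H3K9Ac peaks, and both exceptions were near DDX5. Of 14 such H3K4me3 peaks 10 (71.4%) shared a base with H3K9Ac, against 57.1% of all H3K4me3 peaks, 6 of 9 near HNRNPF and 4 of 5 near DDX5. With so few peaks these shares were read as a description only. At the score ceiling were 3 of the 14 H3K4me3 peaks, all near HNRNPF, and none of the 16 H3K9Ac peaks.

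H3K27me3 had 1 peak in each window, which lay away from the nested peak. Near HNRNPF the only peak ran from 343863731 to 343865245, 41.6 kb below the nested peak, and scored 44.35, a MACS p of 3.7e-05, which is close to the middle of its list (49.6% of H3K27me3 peaks were lower) and does not reach a score of 50. It lay within the lower H3K9me3 block, 1318 bases from the nearest H3K9me3 peak. Near DDX5 the only peak ran from 230015813 to 230017740, 57.3 kb above, with a score of 63.00, above 74.3% of the list, and was 4203 bases from the nearest H3K9me3 peak. Neither shared a base with H3K9me3, against 53.3% of H3K27me3 peaks over the whole list that did, and neither shared a base with an active mark.

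Counted base by base, most of each window carried no peak, 69.5% of 203029 bases near HNRNPF and 72.3% of 202716 bases near DDX5. H3K4me3 covered 43.0 kb and 34.1 kb, H3K9Ac 24.8 kb and 27.7 kb, and H3K9me3 21.1 kb and 18.7 kb, in that order of loci. H3K4me3 together with H3K9Ac and without H3K9me3 made up 21.6 kb near HNRNPF and 20.9 kb near DDX5. H3K4me3 alone was more extensive near HNRNPF (17.6 kb against 10.6 kb), and H3K9Ac alone near DDX5 (4.08 kb against 0.166 kb). All 3 marks together were confined in these windows to the nested peaks, 3029 and 2716 bases.

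The nested peaks were set beside the other H3K9me3 peaks that lie wholly inside both MOAs, of which 234 are on placed chromosomes, 55 on chromosome 1 and 43 on chromosome 2. Among these the HNRNPF peak ranked 9 by score and the DDX5 peak 22, against a median score of 54.0, and 17 and 30 by width, against a median of 1366 bases. The distance to the next H3K9me3 peak ranked lower than score and width at HNRNPF, and about as high as they did at DDX5. The nearest other H3K9me3 peak was 23.9 kb away at HNRNPF and 45.2 kb away at DDX5, ranks 69 and 25 of 234, where the median was 11.5 kb. Over all H3K9me3 peaks the median distance to the next was 2302 bases, and the distances at HNRNPF and DDX5 were longer than for 91.06% and 96.05% of them.

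The enclosing peaks were less exceptional within this class than within their lists. The H3K4me3 widths ranked 83 (HNRNPF) and 46 (DDX5) of 234, and the H3K9Ac widths 124 and 68. The enclosing H3K4me3 peak was at the ceiling for 166 of the 234, the H3K9Ac peak for 135 and both for 123, so DDX5 belonged with the largest part of the class and HNRNPF, whose H3K9Ac peak was below the ceiling, did not. The H3K9Ac peak lay wholly inside the H3K4me3 peak for 157 of the 234, as at DDX5. At HNRNPF it did so only when neighbouring H3K4me3 calls were joined, which was not done for this class. The share of the H3K9Ac peak, as called, that was filled by H3K9me3 was high at HNRNPF (39.9%, rank 27). It was nearer the median of 20.8% at DDX5 (27.4%, rank 77). At HNRNPF the joined H3K9Ac region was wider than the call, 9460 against 7594 bases, so its filled share was lower.

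**Figure D5:**
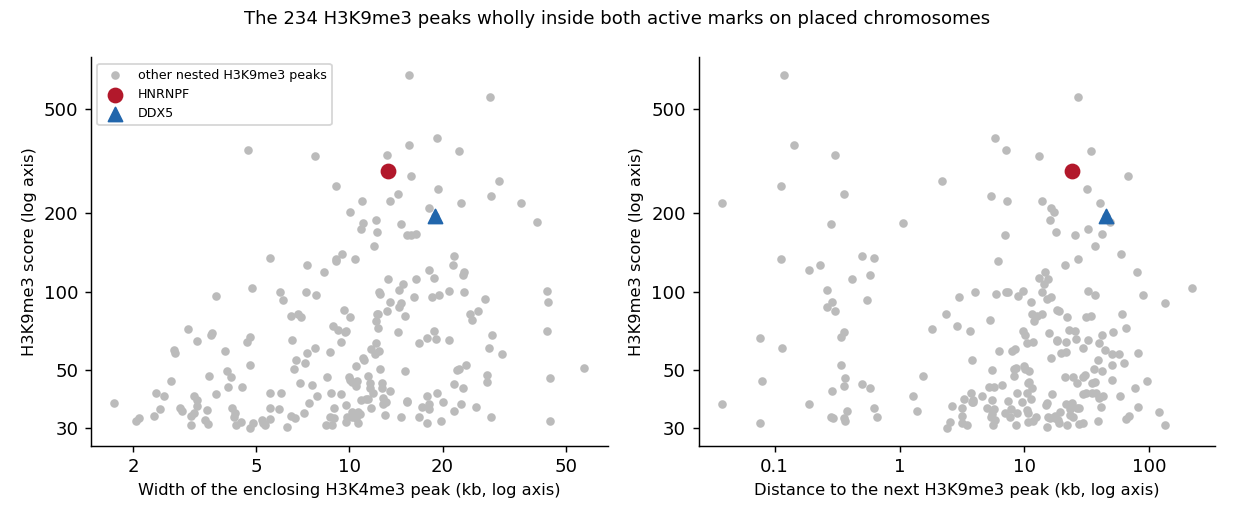
H3K9me3 score (log axis) of the 234 H3K9me3 peaks wholly inside both MOAs on placed chromosomes, against the width in kb of the enclosing H3K4me3 peak (left, log axis) and against the distance in kb to the next H3K9me3 peak (right, log axis), with HNRNPF as a circle and DDX5 as a triangle. Scores of 289.54 and 194.60 put both in the upper part of the class, and of their distances, that of DDX5 (45.2 kb, rank 25) lies higher than that of HNRNPF (23.9 kb, rank 69).

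The number of H3K9me3 peaks around the nested ones depended on the limits set. Within 100000 bases there were 11 H3K9me3 peaks, the nested one included, a number exceeded by 34 of the 234, and 9 near DDX5, against a median of 6. Within 50000 bases the counts were 7 near HNRNPF and 2 near DDX5, and of the peaks within 100000 bases, 5 and 4 had a score of at least 100. H3K4me3 peaks were fewer than the median of 12 at both loci, with 10 near HNRNPF and 6 near DDX5, and 16 of the 234 had fewer than DDX5. H3K9Ac peaks numbered 8 and 10, against a median of 9. In 129 of the 234 windows there was no H3K27me3 peak, whereas both genes had 1.

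The limit of 100000 bases cut through neighbouring signal at DDX5. The H3K9me3 peak just outside, from 230058573 to 230062027, began 100089 bases above the nested peak and had a score of 353.06, higher than the nested one, and another just outside on the lower side, 110639 bases away, had a score of 518.34. The outermost H3K9me3 peaks inside the limit had scores of 115.04 (77.5 kb above) and 105.97 (81.5 kb below). Near HNRNPF the H3K9me3 peaks just outside had scores of 53.06 (102340 bases above) and 51.87 (140240 bases below), and those just inside 42.71 and 35.79. The nearest active peaks outside the HNRNPF window were a pair on the lower side, H3K4me3 with a score of 366.05 and H3K9Ac with a score of 896.05, 111 kb away.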

How the data were processed

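Native ChIP-seq had been done by the authors on fibroblasts of a single male, with 1 library for each of 4 antibodies and 1 input library, and libraries were assigned to marks from the labels. Quality-filtered reads were mapped to MonDom5 with Bowtie in Galaxy (seed of 28 bases, up to 2 mismatches, best alignment) and peaks were called with MACS against the input. The submitters' processing notes name CASAVA 1.7, Bowtie 1.1.2 and MACS 1.0.1. The deposited value is a score per peak, the negative log10 of the p-value from MACS multiplied by 10, as the authors' files hold it. Mapping of reads from repeats and the thresholds of the lists, which differ between marks, can affect which peaks are present, and input signal was not used here.

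Peaks were read with Python 3.11.15, pandas 2.3.3 and numpy 2.4.6. Starts were converted to counting from 1, and 2 starts below 0 were set to 0. All deposited peaks were kept, 1 shared base counted as overlap, scores at or above 3100 were tied, and percentiles give the share of the list with a lower value. Distances count the bases between peaks, and before or below means lower coordinates. The overlap and window code was tested on peaks placed at known positions and checked by direct counting. Genes named are HNRNPF and DDX5 by the study's names, with the neighbours of DDX5 in the annotation of mMonDom1. The members, lists and classes were chosen with earlier results of these data known. Promoters, family genes and cell type markers were not placed on MonDom5 and were not analysed here. No test was made, as there were no replicates and the members were chosen from these peaks. Alternatives were set for the window, the score threshold, merging, unplaced sequence, score per kb and the extent of overlap, and merging for the enclosing widths was added after the data were seen.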

Additional observations from a re-analysis of the deposited data

How the results depend on the processing

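The 31 results were recomputed under the alternatives, and of the 95 values obtained 37 moved. A count was taken as moved outside a factor of 1.5, and a percentile outside its exact 95% binomial interval, which is narrow for lists of this size and covers counting error only. The nested peaks and those over them score above 100, so score limits of 50 and 100 could not change the nesting. The H3K4me3 and H3K9Ac lists start at a score of 50, so that limit could not change their counts or percentiles either. The values that did not move therefore include some that could not. Within 200000 bases there were 59 peaks near HNRNPF and 47 near DDX5. Near DDX5 there were 14 within 50000 bases and 17 at a score of at least 100. Ranked among H3K9me3 peaks with a score of at least 50, the score percentile of the nested peak was 95.4 at HNRNPF and 90.4 at DDX5, and the width percentile 83.51 and 77.81. Without unplaced sequence these were 98.15 and 95.81 for score and 92.63 and 89.45 for width, and 92.38 for the score of both H3K4me3 peaks. In score per kb the percentile was 98.04 and 95.05 for H3K9me3, 76.94 and 66.14 for H3K4me3, and 83.05 and 85.68 for H3K9Ac. H3K9me3 peaks inside both MOAs numbered 1555 when 1 base sufficed, 532 when 50% of the peak had to be shared, and 127 at a score of at least 50. At a score of at least 50 the H3K27me3 peak near HNRNPF was lost, and at 100 that near DDX5 as well. No paired analysis was possible because each mark had a single library. Depth of single peaks was not used here, so precision of positions and scores is unknown.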
